A study of Homo sapiens with 8 samples.

Results

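The drug-metabolizing enzyme families comprised 55 of the 17561 genes measured in HepG2 cells, a human hepatocarcinoma cell line. The members were the genes named as cytochromes P450 of families CYP2, CYP3 and CYP4, UDP-glucuronosyltransferases (UGT1 and UGT2), cytosolic sulfotransferases (SULT), glutathione S-transferases (GST), flavin-containing monooxygenases (FMO), carboxylesterases (CES) and alcohol dehydrogenases (ADH). Another 9 symbols of the same form were left out as pseudogenes or antisense RNAs, and 45 of the 100 protein-coding genes in GENCODE release 44 with such a name were not analysed here, among them CYP2A6, CYP2C19, ADH1A, ADH1B and GSTM1.

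One group of 4 libraries came from cells transfected with pGRHL2, a bicistronic construct coding for flag-tagged GRHL2 under an EEF1A1 promoter and for enhanced green fluorescent protein. The other 4 came from cells given the vector pcDNA3. The constructs thus had other differences besides GRHL2. All cells were kept in William's E medium with serum, insulin and 50 nM dexamethasone, a glucocorticoid, and were harvested 48 h after transfection. The study describes its replicates as biologically independent.

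These families carry out the chemical steps by which the liver clears drugs, toxins, steroids, bile acids and fatty acids. P450s, FMO, CES and ADH oxidize or hydrolyze a compound, and UGT, SULT and GST then couple it to glucuronic acid, sulfate or glutathione so that it can be excreted. In hepatocytes, many of these genes are controlled by the xenobiotic receptors PXR and CAR, encoded by NR1I2 and NR1I3, and by the liver factor HNF4A, whereas HepG2 cells are known for weak expression of several drug-metabolizing P450s.

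The values were on a log2 scale and set against transcript length, so that levels can be compared between genes only roughly. The zero of the scale is arbitrary. In 2965 genes with a library SD under 0.02, the level had a slope of -0.82 on log2 mean transcript length. The order of such genes therefore partly follows length. For each gene, the pGRHL2 and pcDNA3 values with the same replicate number had the same mean for all 4 numbers. A library that was high in one group was therefore matched by an equally low library of the same number in the other, and the 4 pair differences (pGRHL2 minus pcDNA3) are the only independent measurements of a change. The log2 FC is their mean, given with their SD, and a gene was called at a limma adjusted p under 0.05 (Benjamini-Hochberg over all 17561 genes, replicate number as a block). Read counts were not used here, so the depth behind each value was unknown. The log2 FC of GRHL2 itself was 9.48, with 4 of 4 pairs higher, and all 8 hepatocyte markers examined were present, the level of albumin (ALB) averaging 16.88.

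The only member called was CYP4F2, a P450 that hydroxylates fatty acids, leukotriene B4 and vitamin K at the end of their side chain. This gene lies at chr19:15878023-15898077 on the minus strand of hg38, next to CYP4F11 at chr19:15912367-15934867 on the same strand, and the related CYP4F3 and CYP4F12 lie in the same cluster on the plus strand (chr19:15640897-15662825 and chr19:15673018-15697174). The 250 bases before the transcription start of CYP4F2 (chr19:15898075-15898324, minus strand) and of CYP4F11 (chr19:15934868-15935117, minus strand) are printed from RefSeq, assembly GRCh38.p14, from 5′ to 3′, since these neighbours share a strand but only CYP4F2 was called. Capitals mark runs of at least 10 bases that also occur anywhere in the other window.
CYP4F2: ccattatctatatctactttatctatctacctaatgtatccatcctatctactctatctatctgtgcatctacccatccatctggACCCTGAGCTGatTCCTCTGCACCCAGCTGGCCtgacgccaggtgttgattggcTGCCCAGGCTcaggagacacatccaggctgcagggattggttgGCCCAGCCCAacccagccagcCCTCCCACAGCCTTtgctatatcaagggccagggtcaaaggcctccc
CYP4F11: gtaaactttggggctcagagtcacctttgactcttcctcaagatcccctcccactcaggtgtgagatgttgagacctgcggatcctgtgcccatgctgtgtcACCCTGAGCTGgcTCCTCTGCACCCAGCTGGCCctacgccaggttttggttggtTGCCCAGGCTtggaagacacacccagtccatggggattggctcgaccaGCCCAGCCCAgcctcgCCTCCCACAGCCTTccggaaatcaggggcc

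The capitals cover 65 of the 250 bases, and 63.0% of the 270 aligned columns were identical. The shared runs lie in the part of the windows nearer to the start, whereas the far part of the CYP4F2 window holds "tcta" many times over, which the CYP4F11 window lacks. The CYP4F3 window (chr19:15641062-15641311, plus strand) lay inside the span of the gene given above, past its start there. The windows of CYP4F2 and CYP4F11 lay at the start of the gene, so the CYP4F3 window is not placed alike. It shared no run of this length with CYP4F2, and 46.6% of its aligned columns were identical. GC content was 53.6% for CYP4F2 and 60.4% for CYP4F11. Letters of the motif known for GRHL proteins were searched in the same windows, either as AACCGGTT or with 2 free bases as AACNNGTT, which includes the first; each reads the same on both strands. Neither was found in these 3 windows. Of the 46 members with a RefSeq promoter, 0 held AACCGGTT and 2 held AACNNGTT (ADH5, which codes for the glutathione-dependent formaldehyde dehydrogenase, and GSTM2), beside 0.117% and 2.13% of the 12829 promoters of genes in the table. These are counts of letters in short windows and say nothing of where GRHL2 bound.

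The expression level of CYP4F2 in pGRHL2 libraries 1 to 4 was 6.23, 6.33, 6.23 and 6.18, while that in pcDNA3 libraries 1 to 4 was 5.75, 5.65, 5.75 and 5.80. Every pGRHL2 library lay above every pcDNA3 library, which here is the same as 4 positive pair differences. The log2 FC was 0.50 ± 0.13 (SD over 4 pairs, n = 4; adjusted p from limma = 0.00408), a fold of 1.42 with a 95% interval of 1.30 to 1.55. Pair differences were 0.48, 0.68, 0.48 and 0.37. CYP4F2 shared no exon base with another gene, and 0.616% of its 150-base stretches also occurred in another gene, most often CYP4F3.

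The other members of the CYP4 family were not called. CYP4F3, which inactivates leukotriene B4, ranged from 6.76 to 7.06 in the pGRHL2 and from 6.6 to 6.91 in the pcDNA3 libraries, and its log2 FC was 0.056 ± 0.28. CYP4F11, a hydroxylase of long-chain fatty acids, ranged from 6.74 to 6.91 and from 6.68 to 6.85, with a log2 FC of 0.057 ± 0.16. For both genes the groups overlapped. CYP4F12 values were 6.88, 7.0, 6.85 and 6.72 with pGRHL2 against 6.94, 6.81, 6.96 and 7.09 with pcDNA3, giving a log2 FC of -0.088 ± 0.23 (95% interval -0.27 to 0.10), or -0.18 without replicate 2 and 0.0069 without replicate 4. CYP4V2, a fatty acid hydroxylase encoded on chromosome 4, had a log2 FC of 0.034 ± 0.047.

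The change of CYP4F2 was compared directly with that of its relatives, pair by pair. The log2 FC of CYP4F2 exceeded that of CYP4F11 by 0.45 ± 0.13 (SD, n = 4 pairs), that of CYP4F3 by 0.45 ± 0.17, that of CYP4F12 by 0.59 ± 0.11 and that of CYP4V2 by 0.47 ± 0.14. Each difference was positive in 4 of 4 pairs. However, CYP4F2 was chosen for this comparison as the only member called, after its values were seen. The 4 comparisons also reuse the same CYP4F2 differences, so they describe the values and test nothing. No p is given for these 4 comparisons, since an exact sign-flip test over 4 pairs cannot go below p = 0.125.

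**Figure D1:**
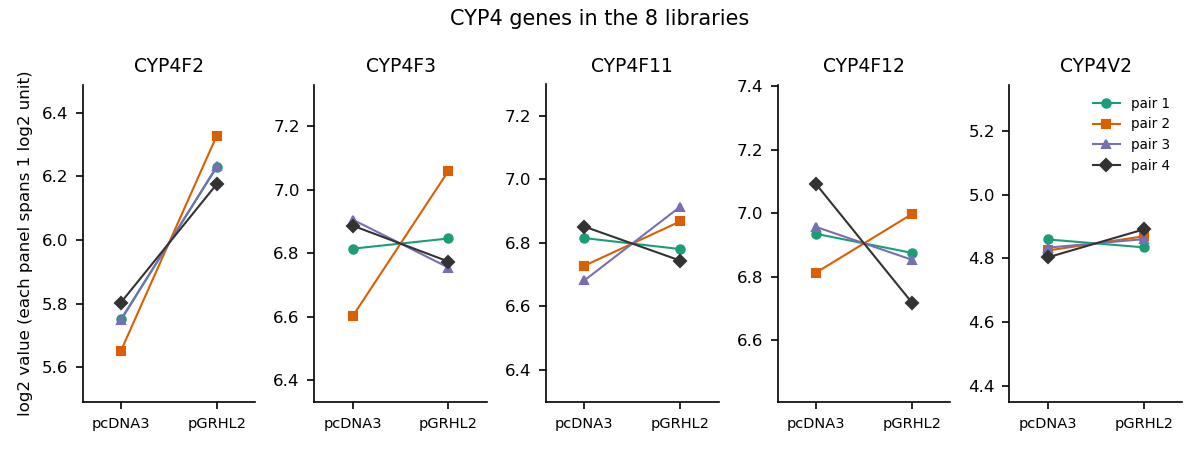
Levels of the 5 CYP4 genes (log2 value, scaled to transcript length) in the pcDNA3 and pGRHL2 libraries, with a line joining the libraries of a replicate number and each panel spanning 1 log2 unit. All 4 CYP4F2 lines rise, from 5.65 to 5.80 up to 6.18 to 6.33. Each of the other 4 genes has both rising and falling lines. The lines of every gene meet at a point, since same-numbered libraries have the same mean.

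Across all members, 1 of 55 was called higher and 0 were called lower, beside 1.69% and 0.501% of all genes (2.19% in either direction). An unadjusted limma p under 0.05 was found for 8 members with a positive log2 FC (14.5% of the members, beside 9.17% of all genes) and for 1 with a negative log2 FC (1.82%, beside 6.78%), and for 16% of all genes in either direction. All pGRHL2 libraries lay above all pcDNA3 libraries for 7 members (13.4% of all genes), among them CYP2S1, CYP4F2, FMO4, GSTM3, GSTA4 and GSTZ1, and below them for 3 members (10.5% of all genes), namely SULT1A3, ADH1C and UGT2B4. In either direction, this was the case for 24% of all genes. These members were singled out after their values were seen, and the shares of members without overlap, 12.7% above and 5.45% below, were not over those of all genes. The log2 FC was positive for 33 members and negative for 22, with a median of 0.012, against 0.0017 over all genes, and a range of -0.13 to 0.50.

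How small a change could be seen depended on the level. Among the 26 members with a mean level of at least 5, the 95% interval reached a median of 0.16 to either side of the log2 FC, against 0.054 among the 29 members under 5. The narrow intervals of weakly expressed genes arose on a scale that shrinks their differences, so that their log2 FC is understated. Levels of at least 5 were reached by 47.3% of the members and by 61.8% of all genes.

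**Figure D2:**
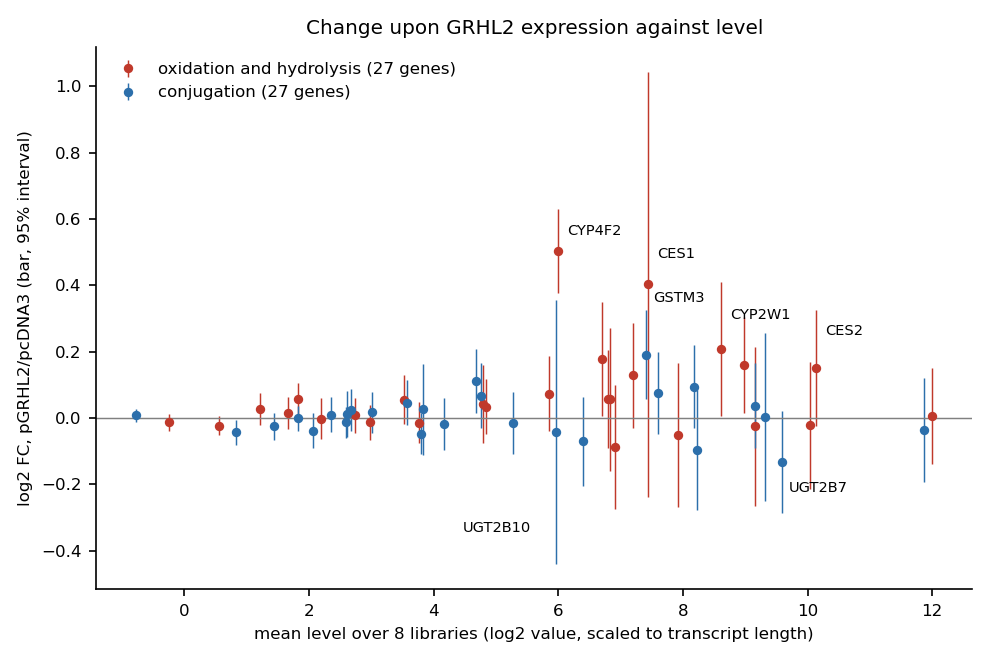
The log2 FC (pGRHL2/pcDNA3) of 54 of the 55 members against its mean level over 8 libraries (log2 value, scaled to transcript length), with bars for the 95% interval from limma, in red for 27 genes of oxidation and hydrolysis and in blue for 27 of conjugation. CYP4F2 stands at 0.50 with a bar well above 0, CES1 at 0.40 with a bar that spans 0, and the bars are short on the left where levels are low.

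Enzyme levels in HepG2 cells spanned from -0.77 (UGT2A3) to 12 (ADH5). The highest members were ADH5 and GSTO1 (11.87), a GST that acts in redox reactions, followed by CES2 (10.14) and FMO5 (10.04). UGT2B7 (9.58), which couples glucuronic acid to morphine and steroids, and SULT2A1 (9.32), which sulfates bile acids and steroids, led their families. Several P450s known for hepatic drug oxidation were low: CYP2E1 averaged 2.98, CYP3A4 2.73, CYP2D6 1.67, CYP2C8 1.22 and CYP2B6 -0.25. The most expressed CYP2 members were instead CYP2S1 (8.98) and CYP2W1 (8.61), and the most expressed CYP3A was CYP3A5 (7.21), well above CYP3A43 (3.77) and the fetal form CYP3A7 (2.20). GSTA1 (2.59), GSTA2 (2.36), GSTP1 (1.82), UGT1A1 (2.07), which conjugates bilirubin, and ADH1C (0.55) were weakly expressed as well. Given the trend on length described above, the order among the low members is uncertain.

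The order of levels should be read with the spread. ADH5 and GSTO1 overlapped, since their 8 libraries ranged from 11.89 to 12.11 and from 11.72 to 12.02, and so did CES2 and FMO5. Within a library, however, ADH5 lay above GSTO1 in 8 of 8 libraries, by 0.010 to 0.25, and CES2 above FMO5 in 7 of 8. Since same-numbered libraries have the same mean, these 8 libraries are not independent. The gap between genes also rests on the scaling to transcript length. Other limits concern shared sequence, because counting was unstranded and at the level of genes. UGT1A1 shared 50.1% of its exon bases with other UGT1A genes, SULT1A3 shared 70.7% with an overlapping gene, CYP3A7 42.6%, CYP2E1 25.4% and SULT1A1 23.2%. Of the 150-base stretches of GSTT2B, 63.5% also occurred in another gene, most often GSTT2. The same was true of 20.3% of those of CES1, most often in CES1P1. The levels of these genes are therefore uncertain.

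**Figure D3:**
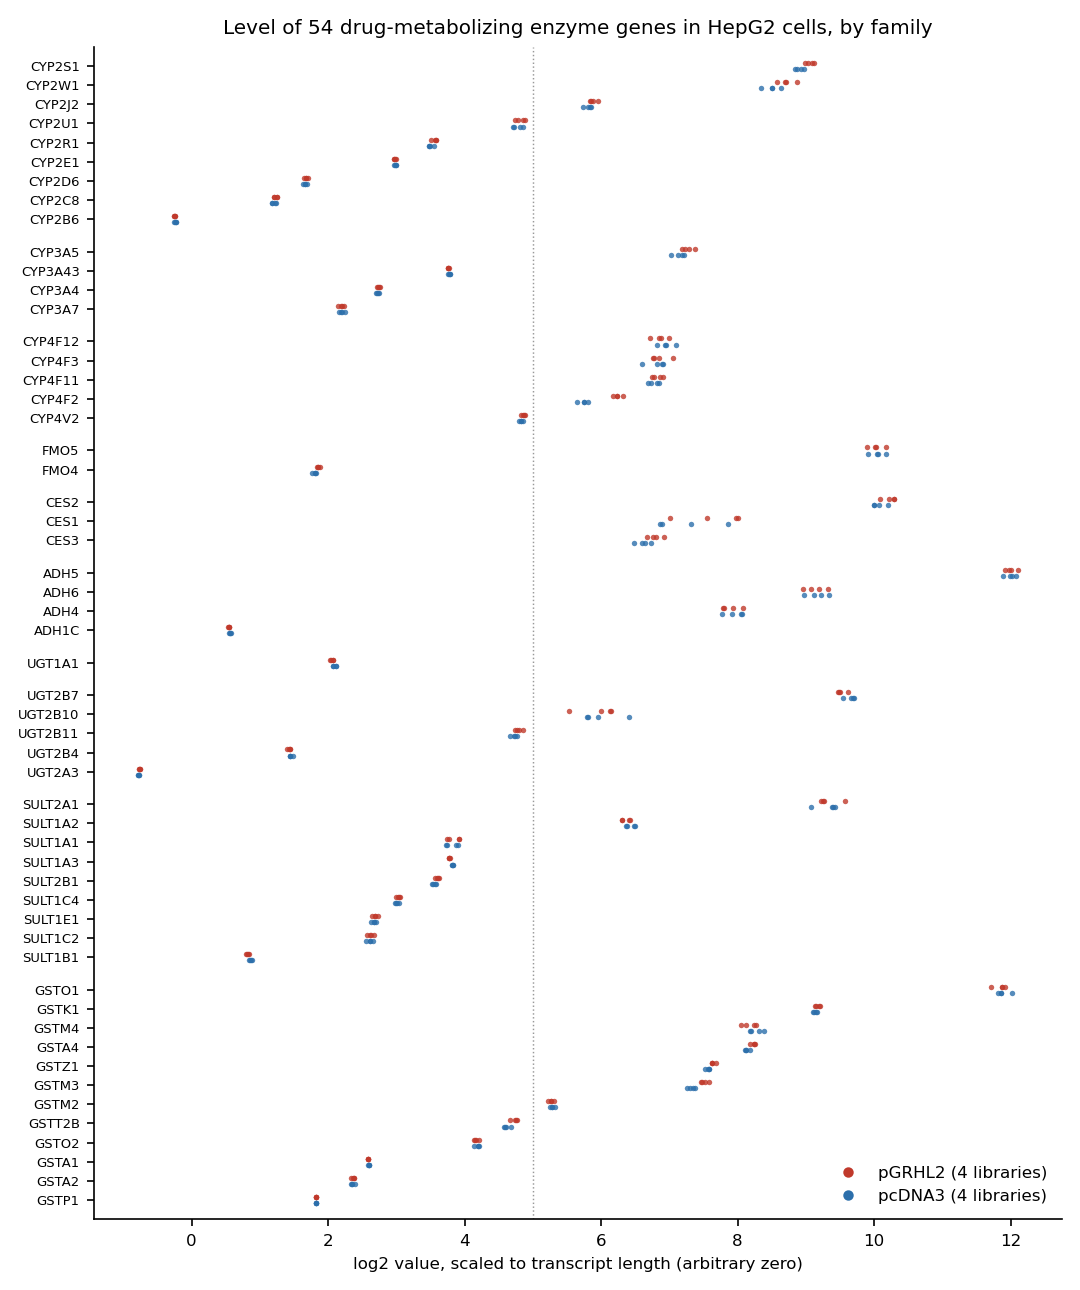
Level of 54 of the 55 members (log2 value, scaled to transcript length) in the 4 pGRHL2 libraries (red) and the 4 pcDNA3 libraries (blue), grouped by family and ordered by mean level, with a dotted line at 5. The differences between genes, from UGT2A3 at -0.77 to ADH5 at 12, are far larger than those between the plasmids, and for most genes red and blue points overlap.

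Among the CYP2 genes, 0 of 10 were called. CYP2S1, an extrahepatic P450 that metabolizes retinoids and lipid mediators, had levels of 9.03, 9.0, 9.10 and 9.13 in pGRHL2 libraries 1 to 4, and of 8.93, 8.97, 8.87 and 8.84 with pcDNA3. The groups did not overlap, though the gap was only 0.024 in pair 2. Its log2 FC was 0.16 ± 0.12 (SD over 4 pairs, n = 4; adjusted p from limma = 0.267). CYP2W1, a P450 described in fetal colon and in tumors, measured 8.70, 8.87, 8.70 and 8.57 with pGRHL2 against 8.51, 8.35, 8.51 and 8.64 with pcDNA3. Pair 4 went the other way, and the log2 FC was 0.21 ± 0.24 (adjusted p from limma = 0.296), or 0.10 without replicate 2.

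For CYP2C8, CYP2D6, CYP2E1 and CYP2B6, forms of clinical pharmacology, the measurements were low and tight. The log2 FC was 0.028 ± 0.054 for CYP2C8, 0.016 ± 0.049 for CYP2D6, -0.012 ± 0.025 for the ethanol-oxidizing CYP2E1 and -0.013 ± 0.024 for CYP2B6. The 95% intervals of these 4 genes stayed between -0.065 and 0.075, on the scale described above, where differences may be shrunken.

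In the CYP3 family, CYP3A5 was the member with the largest log2 FC and 0 of 4 were called. CYP3A5 values were 7.28, 7.19, 7.23 and 7.38 with pGRHL2 and 7.13, 7.22, 7.19 and 7.03 with pcDNA3. The groups overlapped because pair 2 had a difference of -0.031, and the log2 FC was 0.13 ± 0.17 (adjusted p from limma = 0.421; 95% interval -0.029 to 0.29). Leaving out replicate 4 gave 0.054. CYP3A4, the main drug-oxidizing P450 of adult liver, ranged from 2.72 to 2.76 with pGRHL2 and from 2.71 to 2.75 with pcDNA3, and CYP3A7 from 2.15 to 2.24 and from 2.16 to 2.24.

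The monooxygenase FMO5 had levels of 10.03, 10.17, 10.02 and 9.90 with pGRHL2 and of 10.05, 9.91, 10.06 and 10.18 with pcDNA3. FMO4 was far lower, at 1.84 to 1.89 and 1.77 to 1.82. FMO5 groups overlapped, with a log2 FC of -0.022 ± 0.22, whereas those of FMO4 did not, with a log2 FC of 0.056 ± 0.046 (adjusted p from limma = 0.235).

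Carboxylesterases hydrolyze ester drugs and prodrugs, and CES1, the main form of liver, was the most variable of all 55 members. Its values in pGRHL2 libraries 1 to 4 were 7.97, 7.55, 8.01 and 7.0, and in pcDNA3 libraries 1 to 4 they were 6.89, 7.31, 6.86 and 7.86. Pairs 1 and 3 had differences of 1.08 and 1.15, whereas pair 4 had a difference of -0.86, so that the groups overlapped. Its log2 FC averaged 0.40 ± 0.94 (SD over 4 pairs, n = 4; adjusted p from limma = 0.551) and had a 95% interval of -0.24 to 1.04. Leaving out replicate 4 gave 0.82 (adjusted p from limma = 0.0748) and leaving out replicate 1 or 3 gave 0.18 or 0.15 (adjusted p from limma = 0.91 and 0.868). CES2, the intestinal type of carboxylesterase, measured 10.22, 10.29, 10.29 and 10.08 with pGRHL2 and 10.07, 10.00, 10.00 and 10.21 with pcDNA3, and its log2 FC was 0.15 ± 0.20 (adjusted p from limma = 0.395), or 0.24 (adjusted p from limma = 0.11) without replicate 4. The same pair, number 4, had the only negative difference of CES2, at -0.12.

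Alcohol dehydrogenases showed no call among 4 genes. ADH5 ranged from 11.92 to 12.11 with pGRHL2 and from 11.89 to 12.08 with pcDNA3 (log2 FC of 0.0071 ± 0.16). ADH4, which oxidizes retinol and ethanol, ranged from 7.79 to 8.08 and from 7.78 to 8.06 (log2 FC of -0.051 ± 0.27). Groups overlapped for both, and the 95% interval of ADH4 was -0.27 to 0.16.

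Of the conjugation enzymes, 0 of 27 were called. UGT2B7 had the most negative log2 FC of all members. Its values were 9.48, 9.47, 9.51 and 9.62 with pGRHL2 against 9.69, 9.70, 9.66 and 9.55 with pcDNA3. The difference was negative in pairs 1 to 3 and positive in pair 4, and the log2 FC was -0.13 ± 0.14 (SD over 4 pairs, n = 4; adjusted p from limma = 0.389; 95% interval -0.29 to 0.020), or -0.20 without replicate 4. UGT2B10, named after its values were seen because it varied most among the conjugation enzymes, had pair differences of 0.35, 0.32, 0.042 and -0.88. Its log2 FC was -0.043 ± 0.58, and pair 4 was again the one that departed from the others. UGT1A1 ranged from 2.03 to 2.08 with pGRHL2 and from 2.07 to 2.12 with pcDNA3, and its log2 FC was -0.038 ± 0.054.

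Sulfotransferases were led by SULT2A1, whose values were 9.25, 9.57, 9.26 and 9.22 with pGRHL2 and 9.40, 9.07, 9.38 and 9.43 with pcDNA3. Pair 2 stood alone with a difference of 0.50 against -0.21 to -0.12 in the others. The log2 FC was 0.0040 ± 0.33, or -0.16 (adjusted p from limma = 0.41) without replicate 2. SULT1A2 and the phenol-sulfating SULT1A1 had log2 FCs of -0.071 ± 0.13 and 0.026 ± 0.18, with overlapping groups.

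GSTM3, a mu-class GST, had the largest log2 FC among the conjugation enzymes. Its values were 7.58, 7.53, 7.48 and 7.46 with pGRHL2 against 7.25, 7.30, 7.35 and 7.37 with pcDNA3. The groups did not overlap, and the log2 FC was 0.19 ± 0.11 (SD over 4 pairs, n = 4; adjusted p from limma = 0.146; 95% interval 0.058 to 0.32). The other mu-class members had log2 FCs of -0.015 (GSTM2) and -0.096 (GSTM4). GSTO1 ranged from 11.72 to 11.92 with pGRHL2 and from 11.82 to 12.02 with pcDNA3 (log2 FC of -0.036 ± 0.18). The detoxifying forms GSTA1, GSTA2 and GSTP1 had log2 FCs of -0.013 ± 0.011, 0.010 ± 0.047 and -5.1e-04 ± 0.0090, and their 95% intervals stayed between -0.059 and 0.063.

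**Figure D4:**
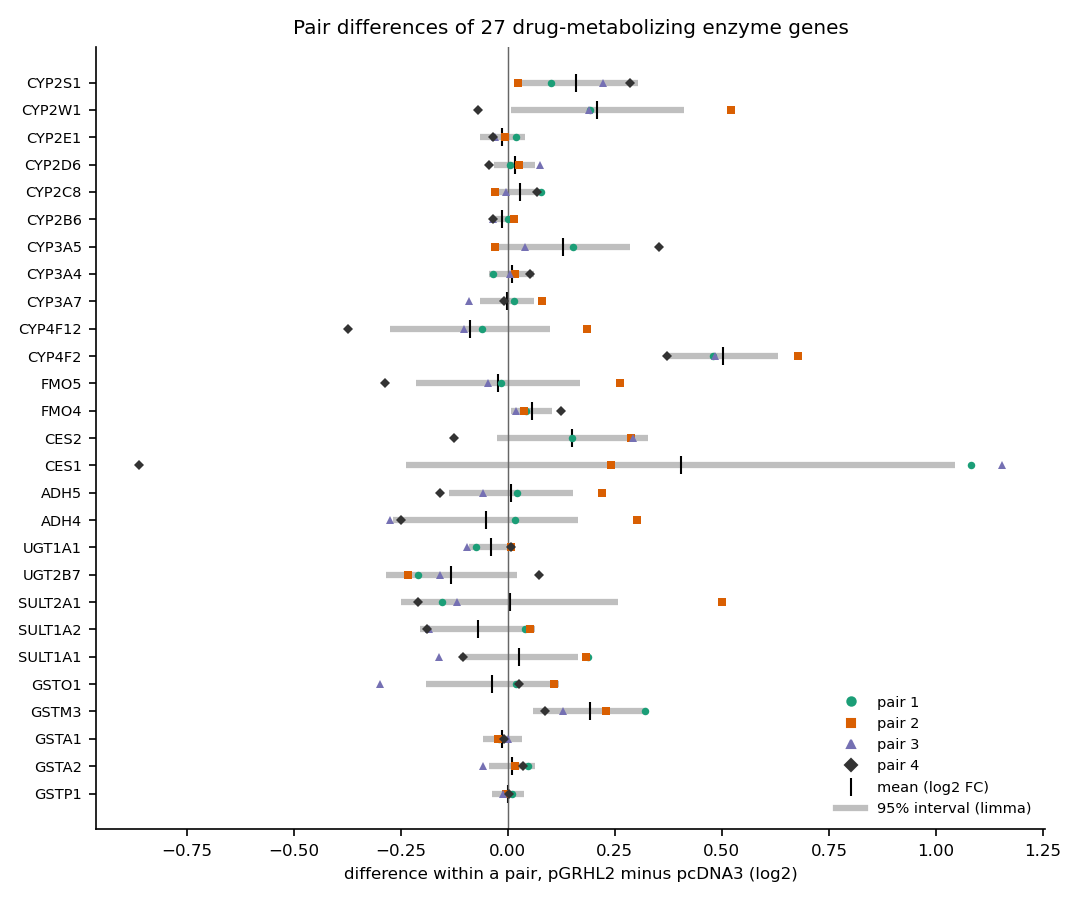
Difference within each pair (pGRHL2 minus pcDNA3, log2) for 27 members named by rule, with 1 symbol per replicate number, a black tick at the mean and a grey bar for the 95% interval from limma. CYP4F2 has all 4 symbols between 0.37 and 0.68, CES1 scatters from -0.86 to 1.15, and SULT2A1 has 1 symbol at 0.50 apart from the others.

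Differences of the members leaned clearly to one side in pair 2 only. Of the 26 members with a level of at least 5, 23 were higher with pGRHL2 in pair 2, compared with 18, 14 and 10 in pairs 1, 3 and 4. The median difference of these members was 0.20 in pair 2, and 0.034, 0.041 and -0.10 in pairs 1, 3 and 4. Over all 10858 genes with a level of at least 5, somewhat fewer were higher than lower in each pair. Those higher numbered 4989, 5123, 5210 and 5013 in pairs 1 to 4. The median log2 FC was -0.010 over these genes (4907 positive, 5951 negative) and 0.047 over the 26 members (16 positive, 10 negative). All 8 hepatocyte markers were higher in pair 2, with a median difference of 0.33. Of them, 4, 2 and 3 were higher in pairs 1, 3 and 4 (medians of -0.0056, -0.047 and -0.098). The medians of markers and members had the same sign in pairs 2 and 4 and opposite signs in pairs 1 and 3. FGB and SERPINA1 were higher in 4 of 4 pairs, and the other hepatocyte markers had differences of both signs. The log2 FC was 0.28 ± 0.33 for FGB and 0.064 ± 0.082 for SERPINA1 (adjusted p from limma = 0.25 and 0.45). No hepatocyte marker was called, and their summed level ranged from 18.14 to 18.35 with pGRHL2 and from 18.04 to 18.25 with pcDNA3. The part of these markers in the members' differences was not tested, and in bulk RNA a smaller share of expressing cells and less RNA per cell cannot be told apart. Cholangiocyte markers (0 of 5 called) ranged in sum from 14.11 to 14.45 and from 14.02 to 14.36, a sum set mostly by KRT19 (level 13.9). KRT7 alone among the 5 was higher in 4 of 4 pairs, with a log2 FC of 0.19 ± 0.12 (adjusted p from limma = 0.097). Of the markers of other cells, COL1A1 and PECAM1 were measured and not called. Their summed level, 6.65 to 6.74 with pGRHL2 and 6.54 to 6.63 with pcDNA3, did not overlap. COL1A1 was higher in 4 of 4 pairs (log2 FC of 0.20 ± 0.10, adjusted p from limma = 0.084) and PECAM1 in 2 of 4. CYP4F2 was higher in all 4 pairs, with a log2 FC of 0.45 (adjusted p from limma = 0.0173) without replicate 2.

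**Figure D5:**
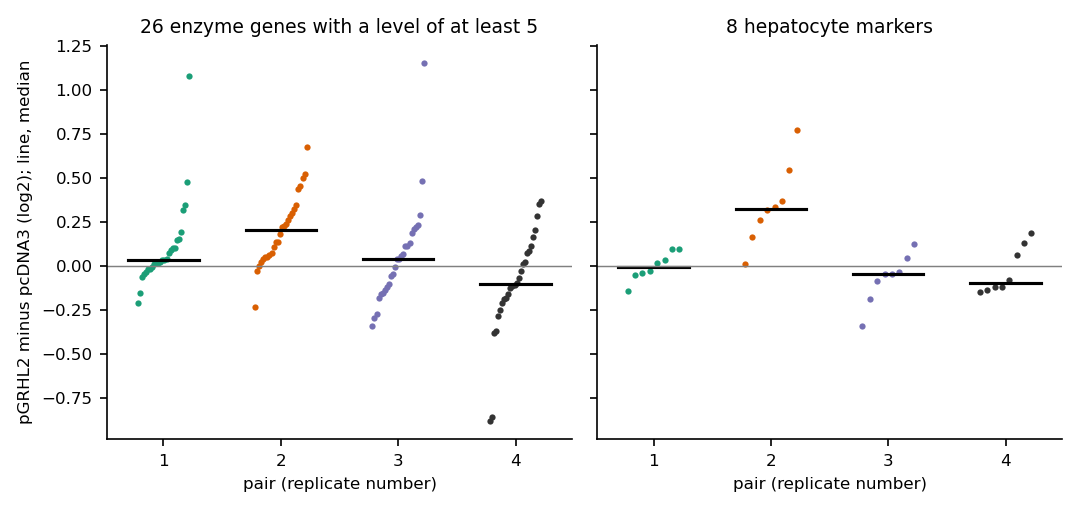
Pair differences (pGRHL2 minus pcDNA3, log2) of the 26 members with a level of at least 5 (left) and of 8 hepatocyte markers (right), by replicate number, with a line at the median. In pair 2 the points lie mostly above 0 in both panels, with medians of 0.20 and 0.33, whereas in pair 4 the medians are -0.10 and -0.098. In pairs 1 and 3 the left and right medians have opposite signs.

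The members were set against 61 other genes of drug metabolism, covering regulators, redox partners, further enzymes, cosubstrate supply and transporters. Of these, 0 were called higher and 2 were called lower, beside the 1.69% and 0.501% of all genes given above, and the median log2 FC was -8.3e-04. CYP1A1, the P450 induced through the aryl hydrocarbon receptor AHR, was one of them, with pair differences of -1.0, -0.95, -0.70 and -0.50. The other was ABCB1, which codes for the drug efflux pump P-glycoprotein (chr7:87503017-87713323, minus strand). ABCB1 levels were 10.42, 10.46, 10.48 and 10.42 with pGRHL2 and 10.73, 10.69, 10.67 and 10.73 with pcDNA3, without overlap. The log2 FC was -0.26 ± 0.058 (SD over 4 pairs, n = 4; adjusted p from limma = 0.0443), close to the threshold, and the call was lost on leaving out any of the 4 replicates (adjusted p from limma = 0.249, 0.145, 0.091 and 0.0948 without replicates 1 to 4), while the log2 FC stayed between -0.28 and -0.24.

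Regulators of the members were not called. Of 11 receptors and liver factors, 8 had a negative and 3 a positive log2 FC, with a median of -0.069. The largest change was that of the glucocorticoid receptor NR3C1, named after its values were seen. Its log2 FC was -0.22 ± 0.062, with 0 of 4 pairs higher (adjusted p from limma = 0.090). The log2 FC was -0.030 ± 0.093 for NR1I2, -0.069 ± 0.024 for NR1I3, -0.067 ± 0.17 for HNF4A and 0.035 ± 0.23 for AHR. POR, the reductase that supplies microsomal P450s with electrons, had a log2 FC of -0.089 ± 0.051 (adjusted p from limma = 0.408; 95% interval -0.20 to 0.017). The pGRHL2 and pcDNA3 levels of NR1I3 and POR did not overlap, and those of NR1I2, HNF4A and AHR did. NR1I3 shared 20.4% of its exon bases with TOMM40L, and AHR shared 35.15% with other genes, which limits both. The level of NR1I3 was 4.51, under 5, where differences may be shrunken.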

How the data were processed

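RNA-seq covered 4 HepG2 libraries per plasmid, pGRHL2 or pcDNA3, grouped and numbered by the labels. The deposited values, although named FPKM, were log2 values, of which 3.71% were below 0. By the methods, the authors counted unstranded exon reads of hg38 with HTSeq at an alignment quality of at least 10, removed genes with fewer than 10 reads over all samples, applied the rlog transformation of DESeq2, which shrinks differences of genes with few reads, and set the values against mean transcript length. The processing notes of the submitters name HISAT2 2.2.1, HTSeq 0.9.1 and DESeq2 1.40.2. Depth was unknown, and no interval for counting error was computed.

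In 17561 of 17561 genes, the 4 pairs of same-numbered libraries had the same mean (spread of at most 1.5e-13), which makes a correlation check of pairing void. How this came about is not given in the sources used here.

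All genes were fitted with limma 3.58.1 in R 4.3.3 (lmFit, eBayes with trend) with the replicate number as a block, leaving 3 residual degrees of freedom. The threshold was an adjusted p of 0.05, and intervals cover 95%. The script was tested on simulated data. Promoters were taken from RefSeq (GRCh38.p14), and positions and shared exon bases from GENCODE release 44, which matched 99.9% of symbols.

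The members and gene lists were chosen with earlier results of these data known. Values were given for members called, the 3 largest increases and the 3 largest decreases with the same sign in all 4 pairs at a level of at least 5 (0 decreases qualified), the highest member and the largest absolute log2 FC of each family, and well-known drug-metabolizing forms. The values of 1 member are not reported here. Of 67 other genes of drug metabolism listed, 61 were in the table and 6 were not analysed here. Other settings were no block, robust or weighted fits, other scalings, filters and trends, and leaving out each replicate.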

Additional observations from a re-analysis of the deposited data

Results flagged for a closer look

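SULT2A1 had a pair 2 difference of 0.4994 (pGRHL2 minus pcDNA3, log2), far from the -0.21 to -0.12 of the other 3 pairs by Dixon's test. Of 35 named genes examined in this way 1 was past the limit, and chance passes about 1 in 20. Over all 55 members 4 were past it (7.27%), beside 6.26% of all genes.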

How the results depend on the processing

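CYP4F2 was called in each of 14 alternatives, with a log2 FC of 0.45 to 0.55, and was the only member called in the 13 that paired the libraries. The fit without the replicate block, which counts each mirrored deviation in both groups, called 7 members higher and 2 lower, 4 and 7 of the other drug metabolism genes, and 1821 and 1427 of all genes. In it, the higher members included CYP2S1, FMO4, GSTA4, GSTM3 and GSTT2B besides CYP4F2, and SULT1A3 and SULT1B1 were lower. Over all genes, 503 higher and 221 lower genes were called with library weights, 495 higher with equal totals, 63 higher at a level of at least 5, 193 higher with the trend on level removed and 162 higher after trends on GC content, on length and on level were all removed (a setting chosen after seeing the data). Leaving out 1 replicate gave 79 to 156 higher and 8 to 68 lower. The share of higher calls was 77.1%, against 84.2% with equal totals, 69.5% with GC, length and level trends removed and 43.8% at a level of at least 5. Of the other drug metabolism genes, 4 were lower with library weights, 1 with the trend on level removed and 1 with all trends removed (ABCB1 was lost, with a log2 FC of -0.23 and -0.22 and an adjusted p of 0.0802 and 0.0823), and 1 to 2 on leaving out 1 replicate. The median log2 FC of members was 0.047 at a level of at least 5 and 0.0050 to 0.026 on leaving out 1 replicate. Signs of uncalled log2 FCs near 0 changed in at least 1 setting for CYP4F12, FMO5, ADH4, ADH5, SULT2A1, SULT1A1, GSTO1, GSTA1, GSTA2, GSTP1, CYP2B6, CYP2D6, CYP2E1, CYP3A4, CYP3A7, NR1I2, HNF4A and AHR. The cause of these shifts was not tested. Without read counts, the part of depth in them could not be examined.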
